A study of Mus musculus with 16 samples.

Results

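The comparison described here set the kidneys of PGC-1α knockout mice fed a high-fat diet (HFD) against those of knockout mice fed chow. Its members were the 4 HFD NiPKO and the 4 chow NiPKO arrays, 8 of the 16 arrays of the series, chosen by their sample titles, and it was made across all 22180 genes with a value. NiPKO stands for nephron-specific inducible PGC-1α knockout. These mice carried the Pax8-rtTA and tetO-Cre (LC1) transgenes and 2 floxed alleles of PGC-1α, so that doxycycline switched on Cre, the recombinase that removes floxed DNA, in the tubule but not in the glomerulus. Pax8 is also weakly active in liver, where recombination of the floxed alleles was seen, so recombination was not limited to the kidney. PGC-1α mRNA was not significantly lower in liver, however, and the study found it unchanged in the other tissues it tested. Male mice drank 0.2 mg/ml doxycycline in water with 2% sucrose for 2 weeks from an age of 12 weeks. They then ate HFD, with 60% of its energy as fat, or chow, with 10%, for 20 weeks. Control (CTRL) littermates, 4 on each diet, received the same doxycycline. Both groups of the comparison therefore carried the same transgenes, floxed alleles and doxycycline treatment, and diet is the one difference that their labels give. The transgenic lines came from a mixed strain background, and how litters were spread over the diets is not stated.

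PGC-1α is a coactivator that binds transcription factors, among them the nuclear receptors ERRα and PPARα, and raises the transcription of genes for mitochondria and fatty acid oxidation. The proximal tubule, which makes up most of the kidney cortex, burns fatty acids for most of its energy. Cells sense sterols and fatty acids through SREBP transcription factors, which drive sterol and fatty acid synthesis when sterols are scarce, and through PPARs, which drive fatty acid oxidation when free fatty acids are abundant.

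RNA of whole kidney was hybridised to Affymetrix mouse whole-transcript arrays, and the deposited values are normalized log2 signals, on which a difference of 1 is a 2-fold change. Array medians lay between 5.35 and 5.40, and pairs of arrays correlated at 0.986 to 0.992 over all probe sets, so no array stood apart over the whole array, although HFD NiPKO replicate 1 did so in adipocyte markers, whose values are given with those genes. Proximal tubule markers averaged 12.1 to 12.2 in the HFD NiPKO arrays and 12.1 to 12.2 in the chow NiPKO arrays, while adrenal cortex markers averaged 4.34 to 4.41 and 4.40 to 4.46 in the same order. In bulk tissue, fewer cells of a type and less RNA per cell cannot be told apart. The labels call the arrays biological replicates without tying them to single animals, so p-values speak only for the spread among these arrays. The Ppargc1a probe set read 9.96, 9.96, 10.07 and 9.96 in HFD NiPKO kidneys and 9.91, 10.18, 10.05 and 10.09 in chow NiPKO kidneys. Its means were higher in NiPKO kidney, at 9.99 on HFD and 10.06 on chow, than in CTRL kidney, at 9.46 and 9.61. By RT-PCR the study measured strongly diminished PGC-1α mRNA in NiPKO kidney, and by PCR of DNA it saw the floxed exons recombined there. The probe set thus ran opposite to the RT-PCR. Whether this probe set lies in the deleted exons was not analysed here, so it checks nothing, and the directions rest on the diet labels. It did not pass the test between diets (log2 fold change -0.07, SE 0.07, adjusted p = 0.71).

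The diet moved few genes past the test and many past a looser bound. In NiPKO kidney 58 genes, or 0.261% of those tested, passed a Benjamini-Hochberg adjusted p of 0.05 in limma, with 30 lower (0.135%) and 28 higher (0.126%) on HFD. At the thresholds of the study's methods, that is p under 0.05 before adjustment and more than 1.2-fold, 992 genes passed (4.47%), 491 lower (2.21%) and 501 higher (2.26%). The 58 genes had no overlap between the 4 HFD and the 4 chow values, as was so for 713 genes (3.21%) in the lower and 1115 genes (5.03%) in the higher direction over all genes. Their median size was 0.58 on the log2 scale, and 9 of them exceeded 2-fold, 6 lower and 3 higher. The median over all genes was 0.0026. The split between directions rested on the scaling, since after quantile normalization 61.6% of the genes past the study's thresholds were lower on HFD, against 49.5% with the deposited values. Adjusted calls also rested on single arrays, and their total was 59, 35, 22 and 7 without HFD NiPKO replicates 1 to 4 in turn, and 105, 9, 17 and 37 without chow NiPKO replicates 1 to 4. The 24 genes with the largest changes, 12 in each direction, were taken from those past the adjusted threshold without overlap between the diets. Predicted genes, clones and small RNAs were left out. Since their groups did not overlap, leaving out an array could not turn their sign, so nothing is read from their kept direction. Tet2, Jarid2, Noct and Depp1, 4 of the 24, passed the adjusted threshold in each of the 8 fits that left out an array.

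Depp1, known in mice as a fasting-induced target of FoxO factors, fell most among the genes that passed the adjusted threshold and are neither predicted genes, clones nor small RNAs. It read 7.78, 7.10, 7.02 and 6.98 in HFD NiPKO kidneys, against 8.65, 9.45, 8.82 and 8.80 in chow NiPKO kidneys. The highest HFD value, in replicate 1, lay below the lowest chow value, and the difference was 3.27-fold (log2 fold change -1.71, SE 0.22, adjusted p = 0.00418). Igfbp1, a secreted IGF-binding protein whose transcription insulin represses, also fell (log2 fold change -0.62, SE 0.12, adjusted p = 0.0407). It read 6.85, 6.94, 7.19 and 7.17 in HFD NiPKO kidneys and 7.37, 7.75, 7.58 and 7.91 in chow NiPKO kidneys, so that the nearest values of the groups lay within 0.2 of each other on the log2 scale.

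Several secreted proteins and reductases were among the other genes that fell. Akr1c18, the 20α-hydroxysteroid dehydrogenase that inactivates progesterone, read 6.93, 6.93, 5.92 and 6.04 on HFD and 8.46, 8.14, 8.05 and 7.71 on chow, a 3.11-fold difference (log2 fold change -1.64, SE 0.30, adjusted p = 0.0302). The 4 HFD arrays formed a higher and a lower pair, both below chow. Angptl7, an angiopoietin-like secreted protein, read 7.61, 8.57, 7.67 and 7.95 on HFD against 9.27, 9.41, 9.25 and 8.80 on chow (log2 fold change -1.24, SE 0.18, adjusted p = 0.0113). Cpe, the carboxypeptidase E that trims prohormones, read 7.86, 8.07, 7.56 and 7.46 on HFD against 9.11, 8.77, 8.92 and 8.72 on chow (log2 fold change -1.14, SE 0.19, adjusted p = 0.0235). Both genes separated the diets by at least 0.2 on the log2 scale between their nearest arrays. Cbr2, a carbonyl reductase, read 7.34, 6.73, 6.53 and 6.28 on HFD against 7.48, 7.99, 8.15 and 7.70 on chow, with the groups nearly touching at replicate 1 of each (log2 fold change -1.11, SE 0.18, adjusted p = 0.0138).

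The remaining genes of the 12 largest decreases were smaller in size. They were the kallikrein Klk1b16 (-0.90), the β-defensin Defb19 (-0.84), Nxpe3 (-0.78), the crystallin Cryaa (-0.64), the fatty acid desaturase Fads1 (-0.63) and Acsm1 (-0.62), which activates medium-chain fatty acids. Their adjusted p ran from 0.00852 for Fads1 to 0.044 for Cryaa. Cryaa has 2 probe sets that disagreed in size, the brighter at -0.64 and the other at -0.06. Klk1b16, Akr1c18 and Defb19 belong to families of related genes, and whether their probe sets also read RNA of relatives was not analysed.

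Slc25a25, the ATP-Mg/phosphate carrier of the inner mitochondrial membrane, rose most among the genes of the same kind that passed the adjusted threshold. It read 8.30, 8.27, 7.98 and 8.64 in HFD NiPKO kidneys, against 7.21, 6.65, 6.82 and 7.01 in chow NiPKO kidneys. The groups were well apart, and the difference was 2.59-fold (log2 fold change 1.38, SE 0.21, adjusted p = 0.0117). Its relatives Slc25a23, Slc25a24 and Slc25a41 did not pass the adjusted threshold, so 1 of the 4 measured carriers of this kind did.

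A pair of chromatin genes rose with narrow spread. Tet2, a dioxygenase that oxidises methylated cytosine in DNA, read 9.88, 9.77, 9.92 and 9.66 on HFD and 9.30, 8.96, 9.06 and 9.13 on chow (log2 fold change 0.69, SE 0.08, adjusted p = 0.0028). Jarid2, a Polycomb component that guides histone methylation, read 9.46, 9.49, 9.27 and 9.18 on HFD and 8.87, 8.55, 8.53 and 8.56 on chow (log2 fold change 0.72, SE 0.10, adjusted p = 0.00587). All HFD arrays exceeded all chow arrays for both genes. Noct, or nocturnin, a rhythmically expressed phosphatase linked in mice to lipid handling, read 7.36, 7.17, 7.59 and 7.68 on HFD and 6.65, 6.60, 6.43 and 6.56 on chow (log2 fold change 0.89, SE 0.11, adjusted p = 0.0028).

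The other genes of the 12 largest increases had varied roles. Haptoglobin (Hp), which binds free hemoglobin, read 6.39, 6.56, 6.62 and 6.84 on HFD and 5.58, 5.62, 5.78 and 5.69 on chow (log2 fold change 0.94, SE 0.14, adjusted p = 0.0117). Apob, the structural protein of very-low-density lipoproteins, read 11.18, 11.39, 11.67 and 11.40 on HFD and 10.83, 10.66, 10.80 and 10.87 on chow (log2 fold change 0.62, SE 0.10, adjusted p = 0.014). Both genes had groups that did not overlap. Serpina3n (0.90), a secreted protease inhibitor, the helix-loop-helix inhibitor Id3 (0.87), the sphingosine phosphate exporter Spns2 (0.70), the cilium gene Dzip1 (0.66), the neurexin Nrxn2 (0.65) and the growth factor Fgf18 (0.63) completed the 12. Their adjusted p ran from 0.0113 for Dzip1 to 0.0381 for Id3, and the second, dimmer probe set of Nrxn2 was at -0.05.

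**Figure D1:**
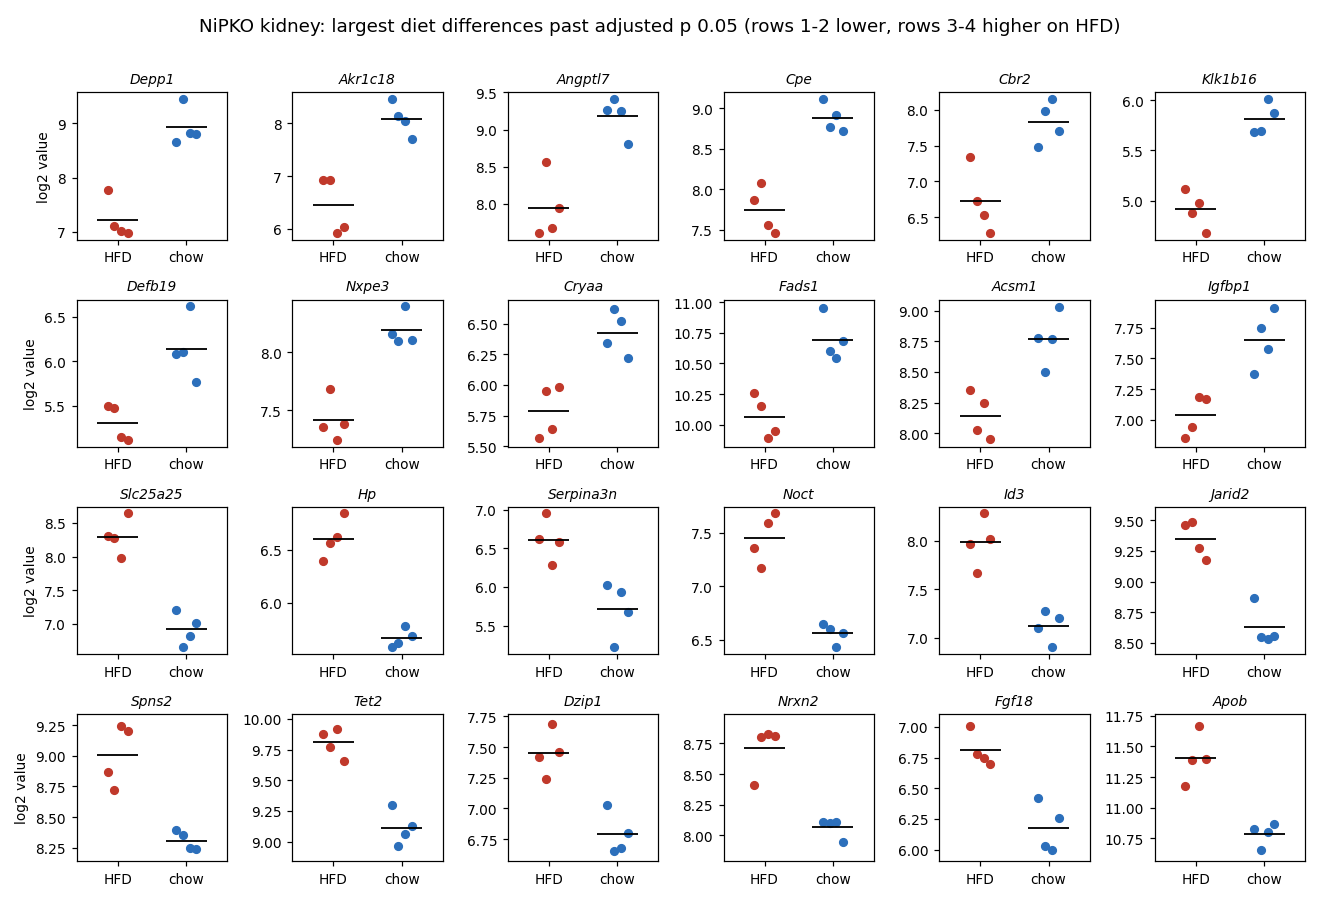
Values of the 24 genes with the largest diet difference, 12 in each direction, among those past an adjusted p of 0.05 (predicted genes, clones and small RNAs left out), one panel a gene, with the log2 value on the vertical axis (its range differs between panels), HFD NiPKO arrays in red and chow NiPKO arrays in blue, and the group mean as a black line. The 12 lower genes fill the upper 2 rows and the 12 higher genes the lower 2 rows. No panel shows overlap, which was a condition of the choice, and the narrowest gap is in Cbr2, at 7.34 on HFD and 7.48 on chow.

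A pair of transcripts without a described role differed more than any of these and were singled out after their values had been seen. 9030619P08Rik read 8.05, 8.29, 7.18 and 7.12 on HFD and 10.26, 9.95, 9.77 and 9.29 on chow, 4.46-fold lower (log2 fold change -2.16, SE 0.28, adjusted p = 0.00418). Gm6614 read 5.71, 5.91, 7.66 and 6.74 on HFD and 4.63, 4.12, 4.52 and 4.60 on chow, 4.11-fold higher (log2 fold change 2.04, SE 0.36, adjusted p = 0.0287), with a wide spread among the HFD arrays. Other genes past the adjusted threshold, likewise chosen after their values were seen, were Il22ra1, a subunit of the IL-22 receptor (log2 fold change -0.56, SE 0.08, adjusted p = 0.00587), and Acox2, the peroxisomal oxidase for branched fatty acids and bile acid intermediates (-0.52, SE 0.10, adjusted p = 0.0302).

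The 58 genes held 3 microRNA loci, also named after their values were seen. MicroRNAs pair with target messages mainly through their seed, bases 2 to 8 of the mature strand. The mature strands of the 2 loci listed in RefSeq (GRCm38.p6) are shown because these loci moved in opposite directions, 5′ to 3′ with the seed in capitals, Mir92b from the hairpin at chr3:89227116-89227198 on the minus strand and Mir218-1 from chr5:48223942-48224051 on the plus strand.
mmu-miR-92b-3p: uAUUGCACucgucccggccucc
mmu-miR-92b-5p: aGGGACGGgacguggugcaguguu
mmu-miR-218-5p: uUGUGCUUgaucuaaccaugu
mmu-miR-218-1-3p: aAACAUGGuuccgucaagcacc
The 4 seeds differ from one another. Mir92b read 6.78, 6.72, 6.49 and 6.76 on HFD and 7.09, 7.11, 7.16 and 7.09 on chow (log2 fold change -0.43, SE 0.08, adjusted p = 0.0289). Mir218-1 read 6.71, 6.71, 6.63 and 6.81 on HFD and 5.88, 6.16, 6.27 and 6.24 on chow (log2 fold change 0.58, SE 0.10, adjusted p = 0.0296). Mir1949 was 2.04-fold higher on HFD (log2 fold change 1.03, SE 0.20, adjusted p = 0.0359). A probe set for such a locus does not tell the mature arms from their precursor, so these values describe RNA of the locus.

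The lists of related genes follow, by role, each with its count at the study's thresholds, for which the background is 2.21% lower and 2.26% higher. Sterol synthesis genes had lower values on HFD for the most part. Of 16 measured enzymes from the mevalonate pathway to cholesterol, 14 had a negative log2 fold change, 7 passed the thresholds as lower and 0 as higher, and the median was -0.23, beside 0.0026 over all genes. None passed the adjusted threshold, the smallest adjusted p being 0.0532. Nsdhl, which removes carbon from the sterol ring, read 9.91, 9.80, 9.58 and 9.55 on HFD and 10.21, 10.11, 10.14 and 10.05 on chow (log2 fold change -0.42, SE 0.08). Fdps, which makes farnesyl diphosphate, read 7.68, 7.92, 7.48 and 7.55 on HFD and 8.32, 8.03, 8.23 and 8.18 on chow (log2 fold change -0.53, SE 0.11, adjusted p = 0.0588). Neither gene had overlapping groups, with HFD replicates 3 and 4 the lowest for both. Tm7sf2 and Dhcr7, late reductases of the pathway, were at -0.38 (SE 0.09) and -0.27 (SE 0.06), with adjusted p of 0.079 and 0.076.

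Regulators of sterol supply had values on the same side. Of 9 measured genes, 8 were below 0, 3 passed the thresholds as lower and 0 as higher, and the median was -0.07. The 3 were Tmem97, a sterol-regulated membrane protein (-0.32, SE 0.09), Srebf2, which encodes the SREBP that drives sterol synthesis (-0.27, SE 0.08), and Insig1, which holds SREBPs back and is itself an SREBP target (-0.40, SE 0.13), with adjusted p of 0.111, 0.13 and 0.172. Srebf2 read 9.18, 9.21, 8.82 and 8.93 on HFD and 9.31, 9.32, 9.26 and 9.33 on chow, so every HFD value lay below the narrow chow range. The sterol exporter Abcg1 lay on the other side, at 7.12, 7.13, 7.16 and 7.15 on HFD and 7.10, 6.83, 6.72 and 6.86 on chow (log2 fold change 0.26, SE 0.09, adjusted p = 0.192).

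The promoters of these genes are shown because the members had values on one side together. SREBPs act at sterol regulatory elements, often beside a CCAAT box bound by NF-Y. In RefSeq windows from 250 bases before to 50 bases after each annotated start (GRCm38.p6), searched on both strands, CCAAT was present in all 13 of the 13 sterol synthesis genes with an entry, against 41.1% of the 27025 genes in the table. The sterol element core TCACNCCAC was present in 1 of the 13, Hmgcs1, against 1.44% of all genes, and the E-box CACGTG, which can bind SREBPs as well as clock factors, in 3 of the 13, against 8.09%. Of the 7 sterol uptake and regulator genes with an entry, 6 held CCAAT, 2 held the E-box and 0 held the sterol element core. Of 18 clock genes with an entry, whose values lay on both sides, 14 held CCAAT (77.8%) and 5 the E-box (27.8%). Of 14 fatty acid synthesis genes, 11 held CCAAT and 3 the E-box, and of 18 glucocorticoid-responsive genes 9 and 5. Shares above those of all genes were therefore not particular to the sterol genes. Below are the 150 bases before the start, 5′ to 3′ on the strand of the gene, with matches to TCACNCCAC, CCAAT and CACGTG or their reverse complements in capitals.
Hmgcs1: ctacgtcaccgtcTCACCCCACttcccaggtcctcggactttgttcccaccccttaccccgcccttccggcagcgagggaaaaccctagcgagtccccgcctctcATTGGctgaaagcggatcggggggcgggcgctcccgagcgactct
Nsdhl: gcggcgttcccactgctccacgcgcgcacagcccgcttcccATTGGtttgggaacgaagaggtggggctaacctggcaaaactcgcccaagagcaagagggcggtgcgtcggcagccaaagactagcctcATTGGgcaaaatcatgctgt
Tm7sf2: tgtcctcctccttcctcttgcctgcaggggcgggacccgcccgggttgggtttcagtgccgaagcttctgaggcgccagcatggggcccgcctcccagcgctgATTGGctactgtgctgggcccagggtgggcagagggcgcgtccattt
Insig1: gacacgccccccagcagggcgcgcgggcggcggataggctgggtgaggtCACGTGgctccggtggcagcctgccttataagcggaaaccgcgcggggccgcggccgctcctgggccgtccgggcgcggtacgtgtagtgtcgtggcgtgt
They lie at chr13:119690201-119690350 on the plus strand (Hmgcs1), chrX:72918371-72918520 on the plus strand (Nsdhl), chr19:6067851-6068000 on the minus strand (Tm7sf2) and chr5:28071262-28071411 on the plus strand (Insig1). The sterol element core of Hmgcs1 begins 137 bases before the start, and the CCAAT boxes nearest the start, all on the reverse strand, begin 45 bases before it in Hmgcs1, 20 in Nsdhl and 47 in Tm7sf2. No matches of different motifs overlapped in these stretches. A match is a description of letters and not a binding site. Hmgcs1, which starts the mevalonate pathway and was added for its promoter, read 11.04, 10.97, 10.91 and 10.81 on HFD and 11.15, 11.15, 11.23 and 11.10 on chow, without overlap (log2 fold change -0.22, SE 0.07, adjusted p = 0.148).

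Fatty acid synthesis and desaturation genes had mostly lower values too. Of 16 measured, 12 were below 0, 3 passed the study's thresholds as lower and 0 as higher, and the median was -0.14. Fads1, which makes arachidonate from its precursor, passed the adjusted threshold and read 10.26, 10.15, 9.89 and 9.95 on HFD and 10.95, 10.60, 10.54 and 10.68 on chow. Scd1, which makes oleate from stearate, had the largest difference, at 10.16, 9.17, 8.58 and 8.71 on HFD and 11.00, 10.97, 9.98 and 10.64 on chow (log2 fold change -1.49, SE 0.30, adjusted p = 0.0543). The highest HFD value of Scd1, in replicate 1, lay above the lowest chow value, in replicate 3. Fasn, the fatty acid synthase, was at -0.42 (SE 0.12, adjusted p = 0.124) and the citrate exporter Slc25a1 at -0.16 (SE 0.04, adjusted p = 0.128), without overlap for Slc25a1.

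**Figure D2:**
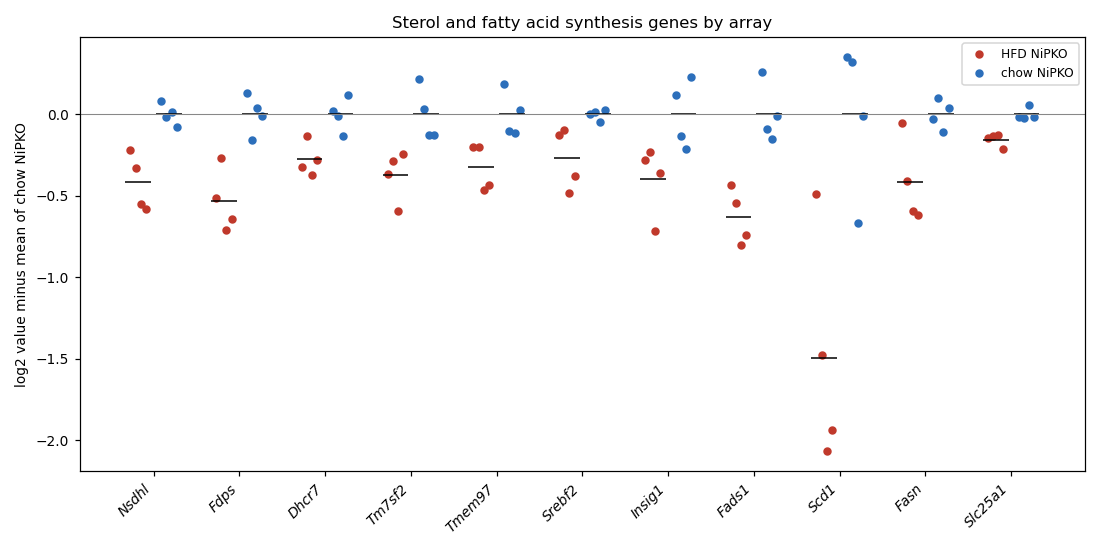
Values of 11 sterol and fatty acid synthesis genes in each array, as the log2 value minus the mean of the 4 chow NiPKO arrays (vertical axis), HFD NiPKO in red left of chow NiPKO in blue, with group means as black lines. The means of all 11 genes lie lower on HFD, and only Scd1 and Fasn show groups that overlap.

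Genes of fatty acid oxidation had smaller differences in the other direction. Of 18 measured enzymes of mitochondrial β-oxidation, 14 were above 0 and 2 passed the study's thresholds as higher, with a median of 0.07 and 0 past the adjusted threshold. The 2 were the enoyl-CoA isomerase Eci1, at 9.49, 9.65, 9.82 and 9.87 on HFD and 9.54, 9.27, 9.31 and 9.50 on chow (log2 fold change 0.30, SE 0.10, adjusted p = 0.204), and the trifunctional protein subunit Hadhb (0.38, SE 0.13, adjusted p = 0.216). Only Hadhb had groups without overlap. It read 5.81, 6.04, 6.05 and 5.95 on HFD and 5.61, 5.32, 5.64 and 5.76 on chow. These values are low for the list, whose mean level was 10.07 to 10.17 on HFD and 9.90 to 10.10 on chow. Acadvl, the very-long-chain dehydrogenase, was at 0.26 (SE 0.09), Acaa2, the thiolase, at 0.22 (SE 0.09), Slc25a20, the carnitine carrier, at 0.20 (SE 0.13) and Acadl, the long-chain dehydrogenase, at 0.14 (SE 0.08), with adjusted p between 0.226 and 0.527. Acadm, the medium-chain dehydrogenase, ran the other way, at 12.13, 12.19, 12.11 and 12.20 on HFD and 12.36, 12.23, 12.27 and 12.35 on chow (log2 fold change -0.15, SE 0.05, adjusted p = 0.214).

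PPARα itself was among the higher values. Ppara read 9.02, 8.99, 9.09 and 8.98 on HFD and 8.72, 8.74, 8.81 and 8.82 on chow, without overlap and below the 1.2-fold bound (log2 fold change 0.25, SE 0.07, adjusted p = 0.11). Ppard (-0.17, SE 0.11) and Pparg (0.02, SE 0.09) had overlapping groups, and the sign of Pparg turned under quantile normalization. Of 12 peroxisomal and omega-oxidation genes, 7 were above 0 and 1, the peroxisomal transporter Abcd2, passed the thresholds as higher, with a median of 0.14. Abcd2 read 4.90, 4.53, 4.39 and 4.02 on HFD and 4.08, 4.12, 4.05 and 4.05 on chow, so 1 HFD array lay below all chow arrays. Ech1, a dienoyl-CoA isomerase, read 11.06, 11.12, 11.28 and 11.13 on HFD and 11.04, 10.80, 10.86 and 11.05 on chow (log2 fold change 0.21, SE 0.07, adjusted p = 0.169).

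Further PPAR target genes were split. Of 21 measured, 3 passed the thresholds as higher and 1 as lower, with a median of 0.07 and 0 past the adjusted threshold. The acyl-CoA thioesterases Acot2 (0.21, SE 0.09) and Acot3 (0.74, SE 0.32), the fatty acid binding protein Fabp1 (0.45, SE 0.27) and the apolipoprotein Apoa2 (0.16, SE 0.10) had overlapping groups. Fabp1 read 3.59, 4.53, 4.58 and 4.17 on HFD and 3.59, 3.59, 3.80 and 4.08 on chow, low values for this array. Acot3 read 6.91, 6.30, 7.75 and 7.02 on HFD and 6.76, 5.95, 5.87 and 6.43 on chow, the wide spread being in both groups. Angptl4, a PPAR-induced inhibitor of lipoprotein lipase, had the one lower call, at 9.27, 8.19, 8.77 and 8.70 on HFD and 9.54, 9.27, 9.17 and 9.39 on chow (log2 fold change -0.61, SE 0.22, adjusted p = 0.225). Cd36, the fatty acid translocase, was at -0.25 (SE 0.08, adjusted p = 0.2) without overlap.

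Of 20 genes for triglyceride synthesis and lipid droplets, 16 were above 0, 2 passed the thresholds as higher and 1 as lower, and the median was 0.10. Dgat2, which adds the last acyl chain, read 10.42, 10.38, 10.41 and 10.42 on HFD and 10.12, 10.16, 10.18 and 10.23 on chow, without overlap (log2 fold change 0.23, SE 0.05, adjusted p = 0.0609), and fell short of the 1.2-fold bound. Agpat2, an acyltransferase earlier in the route, was at 0.21 (SE 0.06, adjusted p = 0.11). The 2 past the bound were Mogat2, a monoacylglycerol acyltransferase (0.54, SE 0.16, adjusted p = 0.141), and the droplet protein Cidec (0.66, SE 0.20, adjusted p = 0.156). Cidec read 6.75, 6.08, 6.07 and 5.67 on HFD and 5.64, 5.56, 5.44 and 5.29 on chow.

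Cidec is also an adipocyte marker, and adipocyte markers moved with diet. Of 9 measured markers, 5 passed the study's thresholds as higher, with a median of 0.45. Their mean level was 6.82, 6.04, 5.97 and 5.94 in HFD NiPKO arrays and 5.73, 5.77, 5.71 and 5.79 in chow NiPKO arrays, so replicate 1 on HFD stood above all others while the other 3 were also above chow. Without that array 3 markers passed, and the median was 0.17. Plin1, the perilipin of adipocyte droplets, read 6.34 in that array and 5.53 to 5.62 in the other 3 HFD arrays, against 5.31 to 5.56 on chow (log2 fold change 0.36, and 0.17 without replicate 1). Fabp4 was at 0.53 with all arrays and 0.35 without that one, and Cidec at 0.66 and 0.45. The part of adipocyte RNA in the values of lipid droplet, PPAR target and cytokine genes was not tested.

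**Figure D3:**
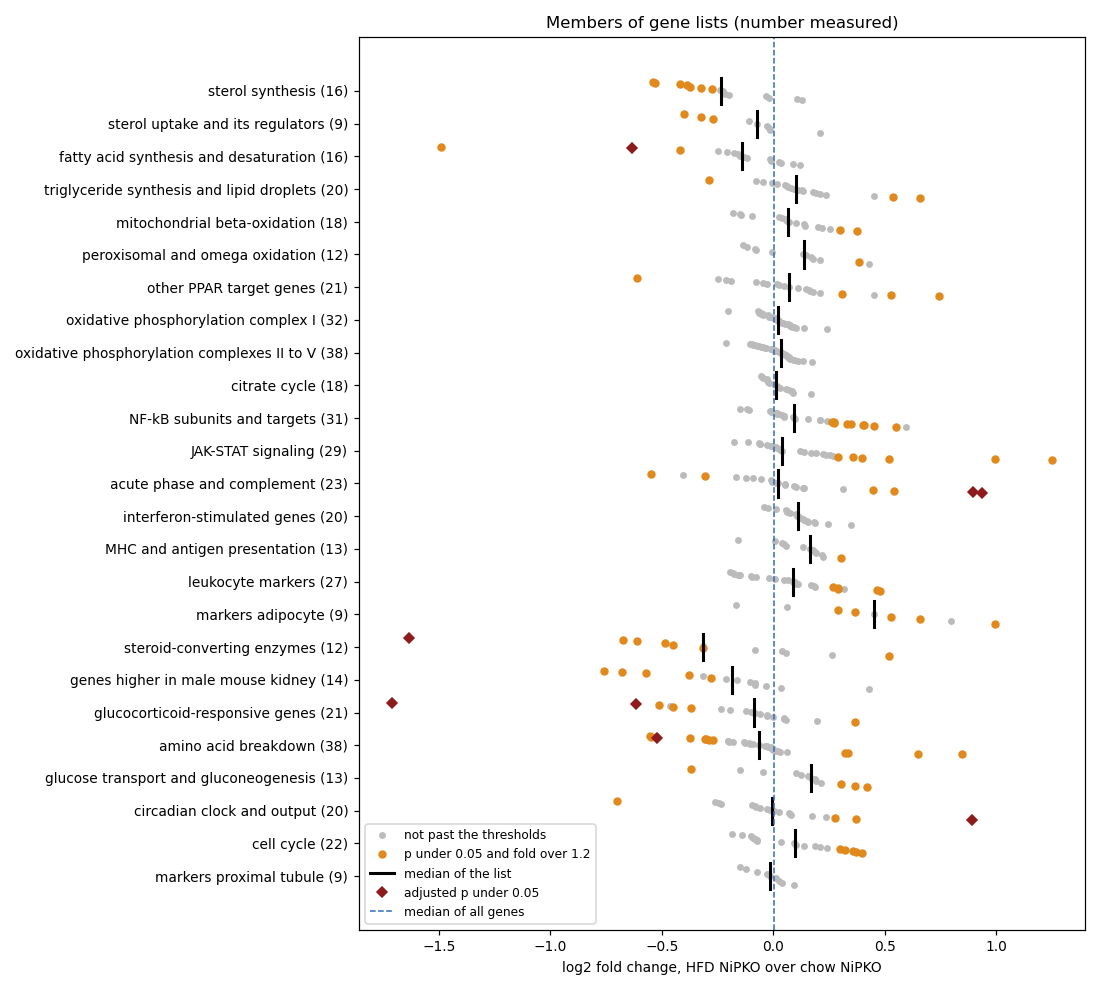
Log2 fold change of HFD NiPKO over chow NiPKO (horizontal axis) for each measured member of 25 gene lists, with the number measured in brackets, members past p under 0.05 and fold over 1.2 in orange, members past an adjusted p of 0.05 as dark diamonds, and the list median as a black bar beside the median of all genes (dashed). The medians of sterol synthesis (-0.23) and steroid-converting enzymes (-0.32) lie left of the dashed line, and those of adipocyte markers (0.45), MHC genes (0.17) and glucose genes (0.17) right of it.

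Genes of the respiratory chain and the citrate cycle had no member past the study's thresholds in either direction. Over 70 subunits of oxidative phosphorylation the median was 0.02, with all values between -0.21 and 0.24, and over 18 citrate cycle genes it was 0.01. Pcx, pyruvate carboxylase, had the smallest p of the citrate cycle list, at 0.17 (SE 0.06, adjusted p = 0.237), without overlap. Among the PGC-1 coactivators and their partners, 1 of 11 passed the thresholds, Pprc1, the PGC-1-related coactivator. Pprc1 read 6.18, 6.27, 6.27 and 6.28 on HFD and 5.96, 6.02, 5.92 and 6.04 on chow, with no overlap and a narrow spread (log2 fold change 0.27, SE 0.06, adjusted p = 0.0588).

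Some inflammatory genes had higher values on HFD. Over the 143 genes of 6 lists (NF-kB, JAK-STAT, acute phase and complement, interferon, MHC and leukocyte markers), 25 passed the thresholds as higher and 2 as lower, with a median of 0.09 and 107 values above 0. Of these 143 genes, 2 passed the adjusted threshold, Hp and Serpina3n. The acute phase list held both, with 4 of 23 higher and 2 lower. Serpina3n read 6.62, 6.95, 6.28 and 6.58 on HFD and 6.02, 5.22, 5.93 and 5.67 on chow. Cp, ceruloplasmin, which carries copper, read 9.45, 9.49, 9.58 and 9.47 on HFD and 9.27, 8.93, 8.87 and 9.13 on chow (log2 fold change 0.45, SE 0.11, adjusted p = 0.0952), with no overlap. The terminal complement gene C7 ran the other way at -0.55 (SE 0.21, adjusted p = 0.251), with overlap.

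NF-kB, a family of transcription factors that drives cytokine genes, had 9 of 31 measured subunits and targets past the thresholds as higher and 0 as lower, with a median of 0.09. The chemokine Cxcl10 read 7.40, 7.13, 6.67 and 6.84 on HFD and 6.63, 6.39, 6.33 and 6.50 on chow (log2 fold change 0.55, SE 0.14, adjusted p = 0.0964). The subunit Rel read 6.83, 6.96, 6.75 and 6.93 on HFD and 6.59, 6.49, 6.65 and 6.34 on chow (log2 fold change 0.35, SE 0.09, adjusted p = 0.113). Both were without overlap, as were the adhesion molecule Vcam1 (0.33, SE 0.10) and the monocyte chemokine Ccl2 (0.41, SE 0.13), with adjusted p of 0.159 and 0.194.

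JAK-STAT genes, which carry cytokine and growth hormone signals, had 6 of 29 members past the thresholds as higher and 0 as lower, with a median of 0.04. Leptin (Lep), the satiety hormone of fat cells, had the smallest p of the list and read 5.49, 5.91, 5.41 and 5.73 on HFD and 4.47, 4.42, 5.11 and 4.56 on chow (log2 fold change 0.99, SE 0.22, adjusted p = 0.0609). Its value was 1.04 without HFD replicate 1, so its difference did not rest on that array. Ccnd2, a cyclin (0.36, SE 0.08), Stat5b (0.25, SE 0.07) and the oncostatin receptor Osmr (0.29, SE 0.08) came next, with adjusted p of 0.0746, 0.113 and 0.136, and only Osmr overlapped. Stat5b read 8.43, 8.33, 8.40 and 8.32 on HFD and 8.11, 8.24, 8.19 and 7.94 on chow and fell short of the 1.2-fold bound by less than 0.02 on the log2 scale.

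Antigen presentation genes had 12 of 13 members above 0 and a median of 0.17, but 1, the peptide transporter Tap2, passed the thresholds (0.30, SE 0.09, adjusted p = 0.145). Interferon-stimulated genes had 18 of 20 above 0 and 0 past the thresholds, with a median of 0.11. Of 27 leukocyte markers 5 passed as higher and 0 as lower, with a median of 0.09. Itgax, the integrin CD11c of dendritic cells and some macrophages, read 5.38, 5.64, 5.46 and 5.45 on HFD and 5.25, 4.98, 5.04 and 4.81 on chow, without overlap (log2 fold change 0.46, SE 0.12, adjusted p = 0.103). Cd79a, a B cell receptor component, was at 0.48 (SE 0.13, adjusted p = 0.122) with overlap. The mean level of all 27 markers was 5.50 to 5.62 on HFD and 5.42 to 5.52 on chow, so the 2 ranges met. Without HFD NiPKO replicate 1 the counts were the same for NF-kB, MHC and JAK-STAT genes in the higher direction, 5 for the acute phase and 4 for leukocyte markers.

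**Figure D4:**
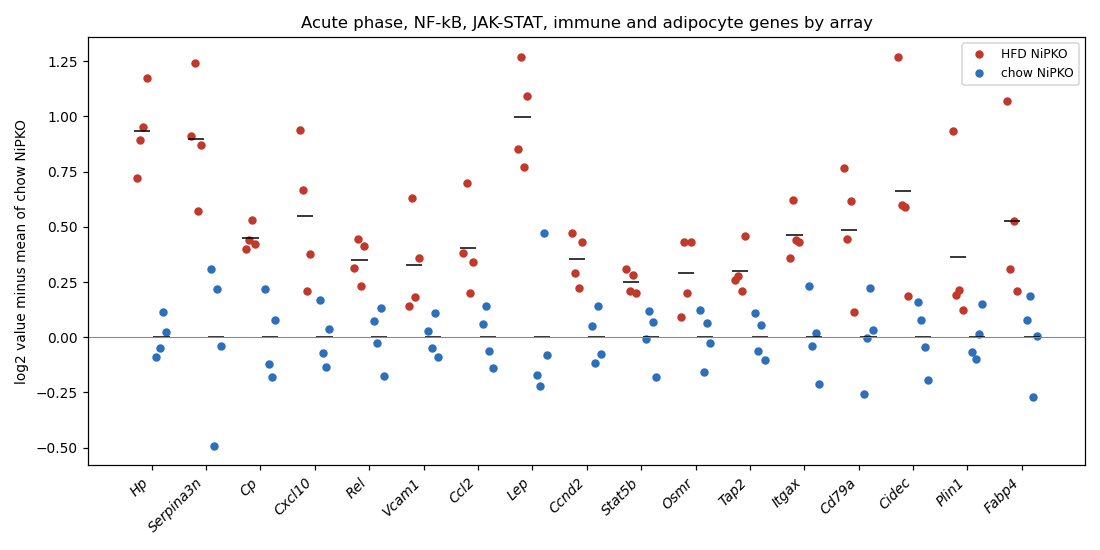
Values of 17 acute phase, NF-kB, JAK-STAT, immune and adipocyte genes in each array, as the log2 value minus the mean of the 4 chow NiPKO arrays (vertical axis), HFD NiPKO in red left of chow NiPKO in blue, with group means as black lines. Every HFD mean lies above 0, and HFD replicate 1, the leftmost red point of each gene, is the highest HFD array for 7 of the 17 genes, Cidec, Plin1, Fabp4, Cxcl10, Cd79a, Ccnd2 and Stat5b.

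Steroid-converting enzymes had lower values. Of 12 measured, 6 passed the study's thresholds as lower and 1 as higher, the median was -0.32, and Akr1c18 passed the adjusted threshold. Hsd17b11, a droplet-associated steroid dehydrogenase, read 11.21, 11.34, 10.81 and 10.92 on HFD and 11.55, 11.70, 11.97 and 11.49 on chow, without overlap (log2 fold change -0.61, SE 0.15, adjusted p = 0.0938). Hsd17b2, which inactivates estradiol and testosterone, was at -0.49 (SE 0.13, adjusted p = 0.11). Akr1c20 was the one above, at 3.71, 4.09, 3.82 and 3.75 on HFD and 3.07, 3.36, 3.21 and 3.65 on chow, low values for this array (log2 fold change 0.52, SE 0.12, adjusted p = 0.0752).

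Many mouse kidney genes depend on sex hormones. Of 14 measured genes known to be higher in male mouse kidney, 12 were below 0, 5 passed the thresholds as lower and 0 as higher, and the median was -0.19, with 0 past the adjusted threshold. Odc1, the androgen-induced ornithine decarboxylase, read 10.64, 10.67, 10.21 and 10.42 on HFD and 11.07, 11.19, 11.29 and 10.68 on chow (log2 fold change -0.57, SE 0.17, adjusted p = 0.137). The organic anion carrier Slco1a1 (-0.76, SE 0.26), the β-glucuronidase Gusb (-0.68, SE 0.22) and the brush-border protease Mep1b (-0.38, SE 0.11) were the next by p. Of these 4 genes, only Gusb overlapped. Slc7a12, an amino acid transporter higher in female mouse kidney, had the largest positive difference of all 22180 genes, at 10.80, 9.87, 11.32 and 10.75 on HFD and 9.10, 7.84, 7.06 and 8.77 on chow, 5.63-fold (log2 fold change 2.49, SE 0.53, adjusted p = 0.0588). Cyp2a5, of the same list of 5, ran the other way at -0.64 (SE 0.26, adjusted p = 0.282).

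Glucocorticoid-responsive genes had 5 of 21 members past the thresholds as lower and 1 as higher, with a median of -0.09, and Depp1 and Igfbp1 passed the adjusted threshold. The key enzymes of gluconeogenesis were split. G6pc, the catalytic subunit that releases free glucose, read 12.16, 12.25, 12.53 and 12.16 on HFD and 12.69, 12.64, 12.57 and 12.68 on chow (log2 fold change -0.37, SE 0.08, adjusted p = 0.0679). Pck1, the cytosolic carboxykinase, read 12.80, 12.60, 12.88 and 12.85 on HFD and 12.58, 12.29, 12.35 and 12.45 on chow (log2 fold change 0.37, SE 0.08, adjusted p = 0.0736). Neither overlapped, and they stood on opposite sides. Of the 13 genes for glucose transport and gluconeogenesis, 10 were above 0, 3 passed the thresholds as higher and 1, G6pc, as lower, with a median of 0.17. Pklr, a pyruvate kinase (0.42, SE 0.11, adjusted p = 0.108), and the fructose transporter Slc2a5 (0.30, SE 0.09, adjusted p = 0.127) were higher without overlap.

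Amino acid breakdown had 29 of 38 members below 0, with 9 past the thresholds as lower and 4 as higher and a median of -0.06. Gnmt, which uses S-adenosylmethionine to methylate glycine, passed the adjusted threshold and read 7.51, 7.19, 7.28 and 7.25 on HFD and 7.84, 7.80, 7.86 and 7.83 on chow (log2 fold change -0.52, SE 0.08, adjusted p = 0.0138). The chow values lay within 0.1 of one another and above every HFD value. Aadat, of lysine and kynurenine breakdown (-0.55, SE 0.12), and Ido2, which opens the tryptophan ring (-0.30, SE 0.06), had adjusted p of 0.0736 and 0.0554. Gldc, the glycine-cleaving decarboxylase, ran the other way, at 10.51, 10.23, 10.40 and 10.46 on HFD and 10.07, 9.60, 9.58 and 9.76 on chow (log2 fold change 0.65, SE 0.14, adjusted p = 0.0659). Among the 23 genes of the ATF4 and unfolded protein responses, 2 passed as lower and 0 as higher, the stress-induced Sesn2 (-0.59, SE 0.14, adjusted p = 0.0746) and the folate enzyme Aldh1l2 (-0.53, SE 0.17, adjusted p = 0.171).

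Carriers of the tubule had values on both sides. Slc22a7, the organic anion transporter OAT2, had a 5.29-fold lower value, at 8.18, 7.40, 5.72 and 5.92 on HFD and 9.39, 9.27, 9.04 and 9.14 on chow (log2 fold change -2.40, SE 0.55, adjusted p = 0.0736). The HFD arrays spanned more than 2 units while the chow arrays kept within 0.4. Slc22a19, a relative, was at -0.76 (SE 0.22, adjusted p = 0.148), whereas Slc22a8, or OAT3, was at 0.31 (SE 0.09, adjusted p = 0.134) and the drug efflux pump Abcb1b at 0.89 (SE 0.27, adjusted p = 0.151). Of 23 organic ion carriers, 4 passed the thresholds as higher and 3 as lower, with a median of 0.02. Of 19 amino acid transporters 3 passed as higher and 1 as lower, among them Slc38a2 (0.34, SE 0.10) and the aromatic amino acid carrier Slc16a10 (-0.29, SE 0.08), while the neutral amino acid transporter Slc6a19 was at -0.26 (SE 0.08) and short of the bound. Sodium, chloride and bicarbonate transport had 1 of 25 in each direction, the phosphate carrier Slc20a1 (0.42, SE 0.12) and the sulfate carrier Slc26a1 (-0.34, SE 0.09). In the renin-angiotensin list of 8 genes, Ace, the converting enzyme, read 10.93, 10.89, 10.53 and 10.63 on HFD and 11.08, 11.29, 11.37 and 11.17 on chow (log2 fold change -0.49, SE 0.15, adjusted p = 0.156). The receptor gene Mas1 was at -0.54 (SE 0.13) and angiotensinogen, Agt, at 0.28 (SE 0.10), so 2 passed as lower and 1 as higher.

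Clock genes had values on both sides, and only Noct passed the adjusted threshold. Of 20 clock and output genes 3 passed the thresholds as higher and 1 as lower, with a median of -0.0046. Npas2, a partner of BMAL proteins, read 6.68, 6.90, 6.20 and 6.13 on HFD and 6.99, 7.53, 7.24 and 6.96 on chow (log2 fold change -0.70, SE 0.21, adjusted p = 0.156). Wee1, a clock-controlled kinase of the cell cycle (0.37, SE 0.09), and the output factor Hlf (0.24, SE 0.06) had adjusted p of 0.0952 and 0.114. Of 24 immediate early genes 1, Jun, passed as higher (0.55, SE 0.14, adjusted p = 0.0887), and the list's median was 0.

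Cell cycle genes had 5 of 22 members past the thresholds as higher and 0 as lower, with a median of 0.10. Skp2, a ubiquitin ligase subunit that clears cell cycle inhibitors, read 6.42, 6.64, 6.51 and 6.32 on HFD and 6.15, 6.16, 6.08 and 6.20 on chow, without overlap (log2 fold change 0.32, SE 0.07, adjusted p = 0.0609). The replication helicase subunit Mcm4 (0.37, SE 0.09) and the thymidylate synthase Tyms (0.30, SE 0.09) had adjusted p of 0.0987 and 0.129. Of 15 injury and repair genes 1, Vcam1, passed as higher. Of 18 collagen and fibrosis genes 1 passed as lower, fibronectin, Fn1 (-0.29, SE 0.10, adjusted p = 0.223), and the collagen gene Col6a1 was at -0.22 (SE 0.09, adjusted p = 0.283).

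Nephron segment markers held their levels to within small differences, with 0 of 9 proximal tubule, 0 of 5 thick limb and 0 of 9 collecting duct markers past the thresholds. The distal convoluted tubule was the exception, with 1 of 4 in each direction. Its calcium-binding proteins stood on opposite sides, Pvalb at 7.68, 7.28, 7.19 and 7.03 on HFD and 6.58, 6.75, 6.97 and 6.83 on chow (log2 fold change 0.52, SE 0.12, adjusted p = 0.0786), and Calb1 at -0.42 (SE 0.10, adjusted p = 0.079). All 5 podocyte markers were above 0, with a median of 0.14 and 0 past the thresholds, led by Podxl at 9.67, 9.72, 9.64 and 9.69 on HFD and 9.44, 9.34, 9.51 and 9.52 on chow (0.23, SE 0.06, adjusted p = 0.128). Of 7 endothelial markers 1, the angiopoietin receptor Tek, passed as higher (0.28, SE 0.07, adjusted p = 0.084), with a median of 0.15. The mean of the endothelial markers was 9.04 to 9.15 on HFD and 8.91 to 8.97 on chow, so the 2 groups did not overlap.

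The same diets were given to control mice, which allowed the diet difference in NiPKO kidney to be set against that in CTRL kidney. In CTRL kidney 125 genes (0.564%) passed the adjusted threshold between the diets. Of the 58 genes called in NiPKO kidney, 54 had the same sign in CTRL kidney and 17 passed the adjusted threshold there as well. The share of all genes with the same sign in both genotypes was not counted. In CTRL kidney 52 of the 58 were smaller, with a median size of 0.36 against 0.58 in NiPKO kidney. The 58 were chosen by their NiPKO values, so nothing is read from this difference in size. Depp1 (-1.71 in NiPKO, -1.59 in CTRL), Fads1 (-0.63 in both) and Cpe (-1.14 and -1.10) were close in size in both genotypes. The sterol synthesis list had medians of -0.23 in NiPKO and -0.27 in CTRL kidney, and fatty acid synthesis -0.14 and -0.17. Steroid-converting enzymes were at -0.32 and -0.38 in the same order, and genes higher in male mouse kidney at -0.19 and -0.25. Slc7a12 was at 2.49 in NiPKO and 2.85 in CTRL kidney, where it passed the adjusted threshold (adjusted p = 0.0253, limma). The other PPAR target genes had medians of 0.07 in NiPKO and 0.25 in CTRL kidney, and β-oxidation genes 0.07 and 0.13. Ppara itself ran the other way, at 0.25 in NiPKO and 0.15 in CTRL kidney (interaction, adjusted p = 0.818, limma). The 6 inflammation lists together had medians of 0.09 in NiPKO and 0.03 in CTRL kidney. MHC genes were at 0.17 and -0.0036, and interferon-stimulated genes at 0.11 and 0.0079. Leukocyte markers were at 0.09 and 0.04, and JAK-STAT genes at 0.04 and 0.02. NF-kB genes, at 0.09 and 0.10, and acute phase and complement genes, at 0.02 and 0.08, had the higher median in CTRL kidney. The differences between these medians were not tested. No gene passed an adjusted p of 0.05 for the interaction of genotype and diet in limma, the smallest being 0.125, while 1828 genes (8.24%) had an unadjusted interaction p under 0.05. Of the 58 genes, 23 were among those 1828, but the 58 were chosen by 1 of the 2 terms of that difference, so nothing is read from this count.

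Among the genes named above, Mir92b, Tet2 and Il22ra1 had the smallest interaction p. Mir92b was at -0.43 in NiPKO and 0.28 in CTRL kidney (interaction, adjusted p = 0.125, limma). Tet2 was at 0.69 in NiPKO and 0.15 in CTRL kidney (interaction, adjusted p = 0.337, limma), and Il22ra1 at -0.56 and -0.11 (interaction, adjusted p = 0.437). None of these differences passed adjustment over all genes. Jarid2 (0.72 in NiPKO, 0.20 in CTRL), Ccnd2 (0.36 and -0.08), Noct (0.89 and 0.37), Cbr2 (-1.11 and -0.33) and Mir1949 (1.03 and -0.02) had adjusted interaction p between 0.451 and 0.491 in limma. Of the inflammatory genes, Rel was at 0.35 in NiPKO and -0.02 in CTRL kidney, Itgax at 0.46 and 0.10, and Hp at 0.94 and 0.45, with adjusted interaction p of 0.519, 0.599 and 0.566.

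**Figure D5:**
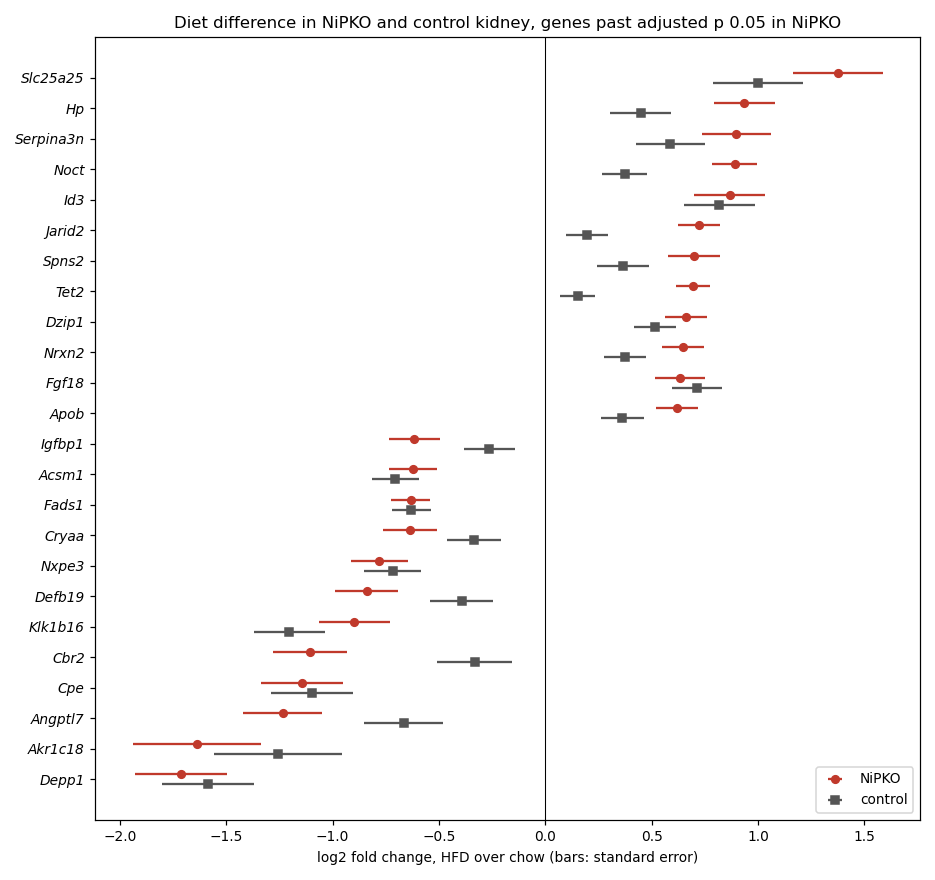
Log2 fold change of HFD over chow (horizontal axis) in NiPKO kidney (red circles) and CTRL kidney (grey squares) for the 24 genes with the largest difference in NiPKO kidney, 12 in each direction, among those past an adjusted p of 0.05 there (predicted genes, clones and small RNAs left out), with bars of 1 standard error. Both genotypes lie on the same side of 0 for each gene shown, and the gap is wide for Cbr2, Tet2 and Jarid2 and narrow for Fads1, Cpe and Id3.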

How the data were processed

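Whole kidney RNA was measured on 16 arrays. The deposited table holds the authors' normalized values on the log2 scale for 41345 probe sets. Partek is named in the submitters' processing notes. For background correction and array scaling, the steps are not given in those notes or in the methods. Signal over background is therefore unknown, and precision is limited by how many arrays there are. Of the probe sets, 23521 carry 1 gene symbol, 1820 several and 16004 none. Only the first were used, 23328 of them matched by gene identifier. Each gene took its brightest probe set, since 1082 genes had several. No filter was applied. The model, with 4 group means over all 16 arrays, used limma 3.58.1 (lmFit, then eBayes) under R 4.3.3, with Benjamini-Hochberg adjustment over 22180 genes. Every adjusted p is from this fit, which was tested on simulated data. The simulation drew each gene independently and without array effects, so it cannot speak to how far calls rest on single arrays. Lists were described by counts and medians without a test.

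The members and the 48 lists were chosen with earlier results of these data known. Named genes were the 12 largest per direction past the adjusted threshold without overlap, in each list all members past it or else up to 4 with the smallest p, and genes the study names for diet in kidney. The pseudogene, the predicted gene and the small RNAs named were added after their values were seen. Replicate numbers were not treated as pairs. Same-numbered deviations correlated at -0.08 to 0.079 and differently numbered ones at -0.088 to 0.093. This cannot show whether samples were matched by litter or handling. Alternatives were a fit on 8 arrays, quantile normalization, median centring, brighter genes only, the methods' t-test, a trended robust prior, array weights, averaged probe sets, a 1.5-fold bound, a replicate block and leaving out each array. No source used here gives a batch or scan date. Sequences are from RefSeq.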

Additional observations from a re-analysis of the deposited data

Results flagged for a closer look

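Of 254 groups of 4 arrays checked for 127 named genes, 9 held an array further from the other 3 than the critical value of Dixon's ratio, against about 1 in 20 groups by chance. In HFD NiPKO replicate 1 these were Depp1 at 7.78 (others 6.98 to 7.10), Plin1 at 6.34 (5.53 to 5.62), Nrxn2 at 8.41 (8.80 to 8.83) and Pprc1 at 6.18 (6.27 to 6.28). Ppargc1a stood at 10.07 in HFD NiPKO replicate 3 (9.96 in the others). In the chow NiPKO arrays they were Jarid2 at 8.87 in replicate 1 (8.53 to 8.56), Agpat2 at 9.17 in replicate 3 (9.03 to 9.05), and in replicate 4 Nrxn2 at 7.95 (8.10 to 8.11) and Pklr at 8.89 (8.75 to 8.77).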

How the results depend on the processing

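The 30 lower and 28 higher adjusted calls became 9 and 12 in the fit on 8 arrays, 120 and 188 among brighter genes only, 87 and 102 with a trended robust prior, 58 and 67 with array weights, and 18 and 15 with the replicate block. They were 0 and 0 under the methods' t-test after adjustment, with 2777 genes at an unadjusted p under 0.05. Quantile normalization gave 55 lower calls. Leaving out each array gave 3 to 46 lower and 4 to 59 higher calls. The 491 lower and 501 higher genes past the study's thresholds became 54 and 43 at 1.5-fold, and 281 were lower among brighter genes only. The labels give the samples only a shared number, so the block is no check of pairing. Of 2143 refitted values of named genes, 1879 kept direction and call, 182 lost and 78 gained the adjusted call, and 4 turned sign, all of Pparg (0.02 with all arrays), namely -0.0189 under quantile normalization, -0.0039 and -0.0419 without HFD NiPKO replicates 1 and 2, and -0.0221 without chow NiPKO replicate 4 (-0.0419 to 0.1057 over the 8 fits that leave out an array). The cause was not tested.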
